A study of Homo sapiens with 18 samples.

Results

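The genes described here are the 10 members of an ATF4-CHOP stress core: the transcription factor genes ATF4, ATF5, ATF3, DDIT3 and NUPR1, and TRIB3, PPP1R15A, DDIT4, SESN2 and VLDLR. They were taken by symbol, with every probe annotated to one of the symbols, and are 10 of 20045 named genes on the array and 10 of the 12975 that passed the filter on dim probes. RNA came from IMR-32 and SK-N-SH, established human neuroblastoma lines, exposed for 24 h to the solvent DMSO, to 1 µM withaferin A (WA) or to 1 µM withanone (WN). IMR-32 is known for MYCN amplification, which SK-N-SH lacks, and SK-N-SH is known to hold cells of neuroblast and of substrate-adherent form. WA and WN are related steroidal lactones from Withania somnifera that carry their epoxide and hydroxyl groups at different places. Each of the 6 groups had 3 biological replicates per the labels, 18 Illumina HumanHT-12 v4 arrays in all, and this number of arrays limits the precision.

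ATF4 is the main effector of the integrated stress response. When the kinases PERK, GCN2, PKR or HRI phosphorylate the initiation factor eIF2, protein synthesis as a whole slows while the ATF4 message is translated more, so that ATF4 is controlled in large part at a step that an array of RNA does not measure. ATF4 protein pairs with other basic leucine zipper factors, many of the C/EBP family, and activates genes of amino acid supply, of redox balance and, together with CHOP (the product of DDIT3), of cell death. PPP1R15A and TRIB3 feed back on the pathway, and the products of DDIT4 and SESN2 restrain the growth kinase complex mTORC1.

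A value is a background-corrected, quantile-normalised log2 intensity. A difference is that of 2 group means on the same log2 scale, with 3 arrays in each group. It is given ± its standard error from the limma fit of all arrays together, with adjusted p from limma. That fit takes the same spread for all groups of a gene, so the standard error can be smaller or larger than the spread of the arrays compared would give. Levels of different genes come from different probes and are not compared with each other. The 6 WN arrays were dimmer, with a brightest probe at 19100.5 to 21479.9, where the other 12 arrays reached 29825.6 to 37328.5, and this cannot be told apart from the WN treatment. Of the 9 neuroblast markers measured 8 or 9 were detected on all 3 arrays of every group, and none of the 3 Schwann cell markers was in any group. Among the 7 mesenchymal markers IMR-32 groups had 2 or 3 and SK-N-SH groups 5 or 6. Of the 5 immune cell markers measured only CD68 and CD14 were detected on all arrays of a group. Scaling each array to its 75th percentile instead shifted the median of all genes in the comparison of DMSO-treated lines to -0.13 and that in the difference between the WA effects to 0.10. Under that scaling the share of higher genes among called genes moved from 52.4% to 42.1% between the DMSO-treated lines, from 49.7% to 66.3% for the difference between WA effects, from 53.9% to 64.7% for WA against WN in SK-N-SH and from 52.3% to 40.7% for WN in IMR-32. No call on a member changed under it.

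WA raised the message of most of the stress core in both lines. In IMR-32, 7 of 10 members rose (DDIT3, PPP1R15A, TRIB3, ATF3, DDIT4, ATF5 and SESN2) and none fell, where 8.04% of all genes tested rose and 6.47% fell. In SK-N-SH 7 of 10 rose as well (DDIT3, TRIB3, ATF3, PPP1R15A, SESN2, DDIT4 and ATF4) and none fell, where 16.4% of all genes rose and 15.4% fell. The median difference over the 10 members was 1.18 for IMR-32 and 1.87 for SK-N-SH, beside 0.02 over all genes in each line. Each line had 8 members whose 3 WA arrays all lay above its 3 DMSO arrays, though not the same 8. ATF5 was among them for IMR-32 only, and NUPR1 for SK-N-SH only. NUPR1 was barely apart there, with a lowest WA value of 5.23 against a highest DMSO value of 5.22. Of all genes 21.4% were apart in this way for IMR-32 and 19.4% for SK-N-SH. These are bulk samples, so a larger share of responding cells and more message per cell cannot be told apart. The summed intensity of the neuroblast markers moved with WA too, from 16477 to 20545 on DMSO arrays to between 11522 and 13802 in IMR-32, and from 26510 to 51877 to between 13402 and 25536 in SK-N-SH. That of the immune cell markers was 581 to 765 with WA in SK-N-SH against 286 to 356 with DMSO and 341 to 499 with WN. In IMR-32 it was 312 to 429 with WA, 300 to 371 with DMSO and 188 to 227 with WN. The defining marker PTPRC was not among those detected on all 3 arrays of any group. A bright gene can carry such a sum. The part of these marker changes in the members' differences was not tested.

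**Figure D1:**
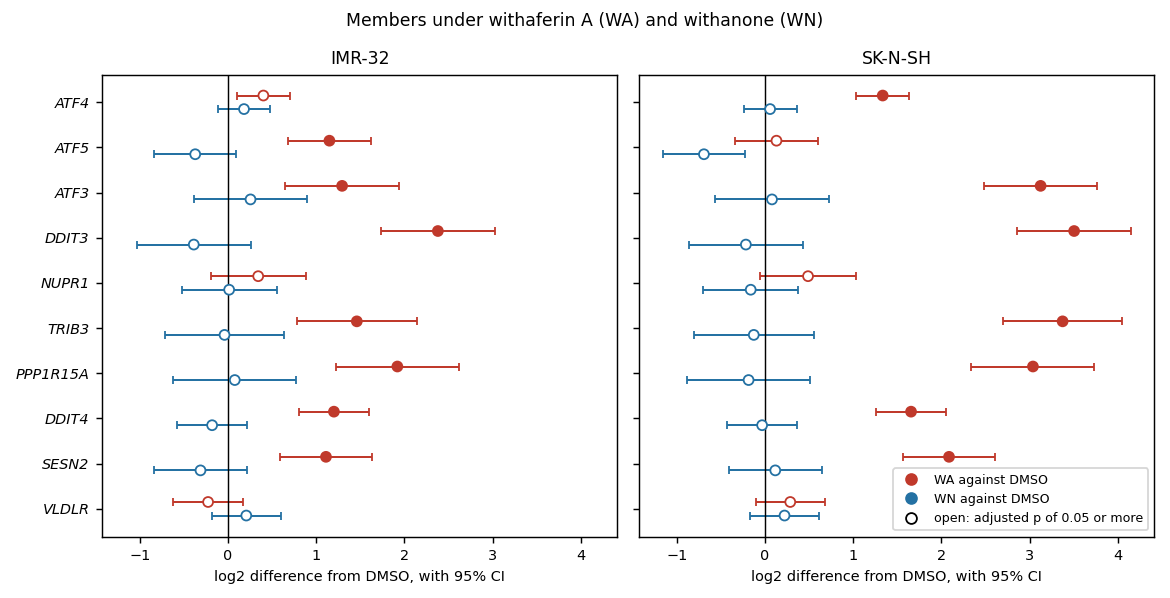
Log2 difference from DMSO of each member (rows) with WA (red) and WN (blue) in IMR-32 (left) and SK-N-SH (right), with 95% confidence intervals from the fit over 3 arrays per group; filled points have an adjusted p under 0.05. In each line 7 WA points are filled, all to the right of 0, and no WN point is filled.

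ATF4 itself rose clearly in SK-N-SH and little in IMR-32. Its brightest probe read 12.94, 12.97 and 12.82 on DMSO replicates 1 to 3 of IMR-32, 13.30, 13.30 and 13.34 with WA, and 13.00, 13.03 and 13.25 with WN. In SK-N-SH it read 12.04, 11.84 and 11.87 with DMSO, 13.05, 13.60 and 13.11 with WA, and 12.10, 11.93 and 11.90 with WN. WA arrays therefore lay above DMSO arrays in both lines, by a narrow margin in IMR-32 and by about a full log2 step in SK-N-SH. The difference was 0.40 ± 0.14 in IMR-32, which missed the threshold (adjusted p = 0.0688), and 1.34 ± 0.14 or 2.52-fold in SK-N-SH (adjusted p = 8.48e-06). In IMR-32 it passed in 6 alternative settings, among them the fit of that line's arrays alone (adjusted p = 0.026). The probes of ATF4 did not all move alike. A second, dimmer probe gave 0.48 ± 0.19 and 1.47 ± 0.19 in a fit of single probes, whereas the dimmest of the 3 gave -0.19 ± 0.22 and -0.28 ± 0.22. With the mean of the 3 probes the SK-N-SH difference was 0.84.

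ATF5, a close relative of ATF4 that is also controlled by translation and is known for its part in the mitochondrial unfolded protein response, passed the test in IMR-32 and not in SK-N-SH. It read 8.90, 8.95 and 8.69 with DMSO in IMR-32, 10.33, 10.24 and 9.42 with WA, and 8.46, 8.45 and 8.52 with WN. In SK-N-SH the values were 9.18, 9.09 and 8.74 with DMSO, 8.90, 9.25 and 9.25 with WA, and 7.95, 8.32 and 8.67 with WN. All WA arrays of IMR-32 thus lay above its DMSO arrays, while WA and DMSO arrays of SK-N-SH overlapped and its WN arrays were the lowest. The WA difference was 1.15 ± 0.22 or 2.22-fold in IMR-32 (adjusted p = 0.00234) and 0.13 ± 0.22 in SK-N-SH (95% interval -0.34 to 0.60, adjusted p = 0.697).

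DDIT3, which encodes the stress factor CHOP, had the largest WA difference of the 10 members in each line. Its values in IMR-32 were 7.03, 6.60 and 6.91 with DMSO, 9.67, 9.52 and 8.50 with WA, and 6.56, 6.35 and 6.48 with WN. In SK-N-SH they were 7.25, 7.18 and 7.33 with DMSO, 10.12, 11.48 and 10.68 with WA, and 6.71, 7.04 and 7.36 with WN. No WA array came near a DMSO or WN array of its line, and the WN arrays of IMR-32 all lay below the DMSO arrays. DDIT3 rose 5.21-fold in IMR-32 (2.38 ± 0.30, adjusted p = 8.02e-05) and 11.4-fold in SK-N-SH (3.51 ± 0.30, adjusted p = 1.71e-06), where it ranked 27 and 9 by absolute difference among all genes tested.

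ATF3, a stress-induced factor of the same leucine zipper class that is itself a known ATF4 target, rose in both lines. It read 7.39, 7.09 and 7.10 with DMSO in IMR-32, 8.71, 8.77 and 8.00 with WA, and 7.81, 7.18 and 7.37 with WN. In SK-N-SH it read 5.75, 5.61 and 6.06 with DMSO, 8.13, 9.69 and 8.98 with WA, and 5.63, 5.95 and 6.08 with WN. WA arrays lay above all other arrays of the line in both lines, and WN arrays overlapped the DMSO arrays. ATF3 rose 2.45-fold in IMR-32 (1.29 ± 0.30, adjusted p = 0.00905) and 8.73-fold in SK-N-SH (3.13 ± 0.30, adjusted p = 4.76e-06). Without background correction the SK-N-SH difference was 1.97. The other 2 probes of ATF3 were detected on no array.

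NUPR1 encodes a small stress-induced chromatin protein and was near the limit of detection. Its kept probe was detected on 7 of 18 arrays: 3 of 3 with WA in SK-N-SH, 2 of 3 with WA in IMR-32, 1 each with WN in IMR-32 and DMSO in SK-N-SH, and none with DMSO in IMR-32 or WN in SK-N-SH. It read 4.53, 5.65 and 5.49 with WA against 5.12, 4.74 and 4.78 with DMSO in IMR-32, and 5.23, 5.53 and 5.40 against 4.70, 5.22 and 4.78 in SK-N-SH. The groups overlapped in IMR-32 and were barely apart in SK-N-SH, with differences of 0.34 ± 0.26 (adjusted p = 0.43) and 0.49 ± 0.26 (adjusted p = 0.159).

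RefSeq gives windows of 300 bases, 250 before and 50 from the start site on (build GRCh38.p14), for 9 of the 10 members, 16 windows in all. They are shown for the 4 members with the largest WA difference in SK-N-SH, read 5′ to 3′ on the gene's strand. Capitals mark any match, on either strand, to the core TGATGNAA of the C/EBP-ATF response element (CARE) or the cyclic AMP response element TGACGTCA (CRE). The core TGACNNNGC of the antioxidant response element (ARE), which is not specific to this pathway, was searched and marked in the same way. For genes with several start sites the first window listed is shown.
DDIT3 (chr12:57520465-57520764, minus strand): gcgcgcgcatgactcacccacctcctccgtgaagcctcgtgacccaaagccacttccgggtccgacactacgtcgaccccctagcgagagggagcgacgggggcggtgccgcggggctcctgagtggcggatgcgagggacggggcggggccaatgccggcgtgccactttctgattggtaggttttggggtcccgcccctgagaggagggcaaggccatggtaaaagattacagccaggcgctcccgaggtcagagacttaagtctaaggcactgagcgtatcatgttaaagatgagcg
ATF3 (chr1:212565157-212565456, plus strand): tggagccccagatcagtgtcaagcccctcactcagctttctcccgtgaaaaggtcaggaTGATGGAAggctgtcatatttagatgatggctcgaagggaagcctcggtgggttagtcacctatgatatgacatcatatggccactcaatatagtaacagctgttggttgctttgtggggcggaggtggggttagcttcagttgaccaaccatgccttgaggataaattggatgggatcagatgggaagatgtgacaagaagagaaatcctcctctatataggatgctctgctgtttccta
TRIB3 (chr20:381045-381344, plus strand): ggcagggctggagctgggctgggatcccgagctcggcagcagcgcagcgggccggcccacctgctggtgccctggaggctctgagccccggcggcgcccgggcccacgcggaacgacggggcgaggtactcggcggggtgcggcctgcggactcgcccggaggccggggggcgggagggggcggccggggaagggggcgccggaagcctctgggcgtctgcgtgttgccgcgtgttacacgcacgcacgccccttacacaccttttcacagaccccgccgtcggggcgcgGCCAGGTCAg
PPP1R15A (chr19:48872171-48872470, plus strand): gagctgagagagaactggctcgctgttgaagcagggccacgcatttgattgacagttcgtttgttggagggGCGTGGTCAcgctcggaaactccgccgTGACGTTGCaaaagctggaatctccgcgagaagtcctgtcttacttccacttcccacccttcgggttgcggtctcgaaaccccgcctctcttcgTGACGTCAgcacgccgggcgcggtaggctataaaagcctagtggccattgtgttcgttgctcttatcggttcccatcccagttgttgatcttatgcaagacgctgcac

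The CARE core occurs in the first ATF3 window at -191 from the start site, and the second window of that gene, not shown, holds none of the 3 motifs. The PPP1R15A window holds the CRE at -58 and the ARE core at -179 and -152, the first of them on the opposite strand. The ARE core lies at 41 in the first TRIB3 window and is held by all 3 windows of that gene, which overlap. The VLDLR window, not shown, holds the ARE core at -35. None of the 3 motifs was found in these letters for DDIT3, ATF4, ATF5, DDIT4 or SESN2. Of the 35116 RefSeq windows 3.62% hold the CARE core, 1.85% the CRE and 13.3% the ARE core, and a match describes the letters only.

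TRIB3 and PPP1R15A, the feedback genes of the pathway, rose strongly in both lines. TRIB3 encodes a pseudokinase that binds ATF4 and CHOP and restrains AKT signalling. It read 7.72, 7.72 and 7.82 with DMSO in IMR-32, 9.50, 9.53 and 8.61 with WA, and 7.57, 7.65 and 7.93 with WN. In SK-N-SH it read 8.57, 8.57 and 8.63 with DMSO, 10.93, 12.52 and 12.45 with WA, and 8.42, 8.31 and 8.67 with WN. The DMSO arrays of a line lay close together, and every WA array was well above them. TRIB3 rose 2.75-fold in IMR-32 (1.46 ± 0.32, adjusted p = 0.00591) and 10.4-fold in SK-N-SH (3.38 ± 0.32, adjusted p = 4.17e-06).

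PPP1R15A encodes GADD34, the stress-induced subunit that directs protein phosphatase 1 to eIF2 and so ends the block of translation. With DMSO it read 8.42, 8.40 and 8.15 in IMR-32 and 8.81, 8.60 and 9.25 in SK-N-SH. With WA it read 10.50, 10.49 and 9.75 in IMR-32 and 10.96, 12.69 and 12.13 in SK-N-SH, and with WN 8.14, 8.45 and 8.61 and then 8.48, 8.60 and 9.03. WA arrays again stood apart from the others in both lines. PPP1R15A rose 3.79-fold in IMR-32 (1.92 ± 0.33, adjusted p = 0.00102) and 8.22-fold in SK-N-SH (3.04 ± 0.33, adjusted p = 1.05e-05).

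DDIT4 and SESN2, whose products REDD1 and sestrin 2 inhibit mTORC1, also rose in both lines. DDIT4 read 9.64, 9.76 and 10.29 with DMSO in IMR-32, 11.09, 11.24 and 10.96 with WA, and 9.60, 9.66 and 9.88 with WN. In SK-N-SH it read 10.06, 9.67 and 10.16 with DMSO, 11.38, 11.71 and 11.78 with WA, and 10.14, 9.74 and 9.92 with WN. The 3 WA arrays were close together in each line and above all others of that line. DDIT4 rose 2.30-fold in IMR-32 (1.20 ± 0.19, adjusted p = 4.23e-04) and 3.15-fold in SK-N-SH (1.66 ± 0.19, adjusted p = 1.37e-05).

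SESN2 is known as a target of p53 and NRF2 besides ATF4. It read 5.29, 5.07 and 5.35 with DMSO in IMR-32, 6.75, 6.41 and 5.89 with WA, and 4.97, 4.93 and 4.88 with WN, where no WN array detected it. In SK-N-SH it read 5.85, 5.58 and 5.99 with DMSO, 7.32, 8.52 and 7.84 with WA, and 5.85, 5.80 and 6.12 with WN. WA arrays were the highest in both lines. SESN2 rose 2.16-fold in IMR-32 (1.11 ± 0.25, adjusted p = 0.00651), a call lost without background correction (0.43, adjusted p = 0.0709) and with the authors' own log2 values (0.43, adjusted p = 0.0709). In SK-N-SH it rose 4.25-fold (2.09 ± 0.25, adjusted p = 2.19e-05), with 1.16 under each of those settings.

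VLDLR, the very low density lipoprotein receptor, for which induction through ATF4 has been described, showed no rise. It read 6.25, 6.50 and 6.24 with DMSO, 6.09, 6.17 and 6.05 with WA, and 6.53, 6.32 and 6.76 with WN in IMR-32. In SK-N-SH it read 7.86, 7.60 and 7.36 with DMSO, 7.81, 7.86 and 8.01 with WA, and 8.28, 7.75 and 7.46 with WN. The WA arrays of IMR-32 lay just below the DMSO arrays, and in SK-N-SH all groups overlapped. The WA differences were -0.23 ± 0.19 in IMR-32 (95% interval -0.62 to 0.17, adjusted p = 0.489) and 0.29 ± 0.19 in SK-N-SH (95% interval -0.11 to 0.68, adjusted p = 0.26). Its second probe was detected on no array.

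**Figure D2:**
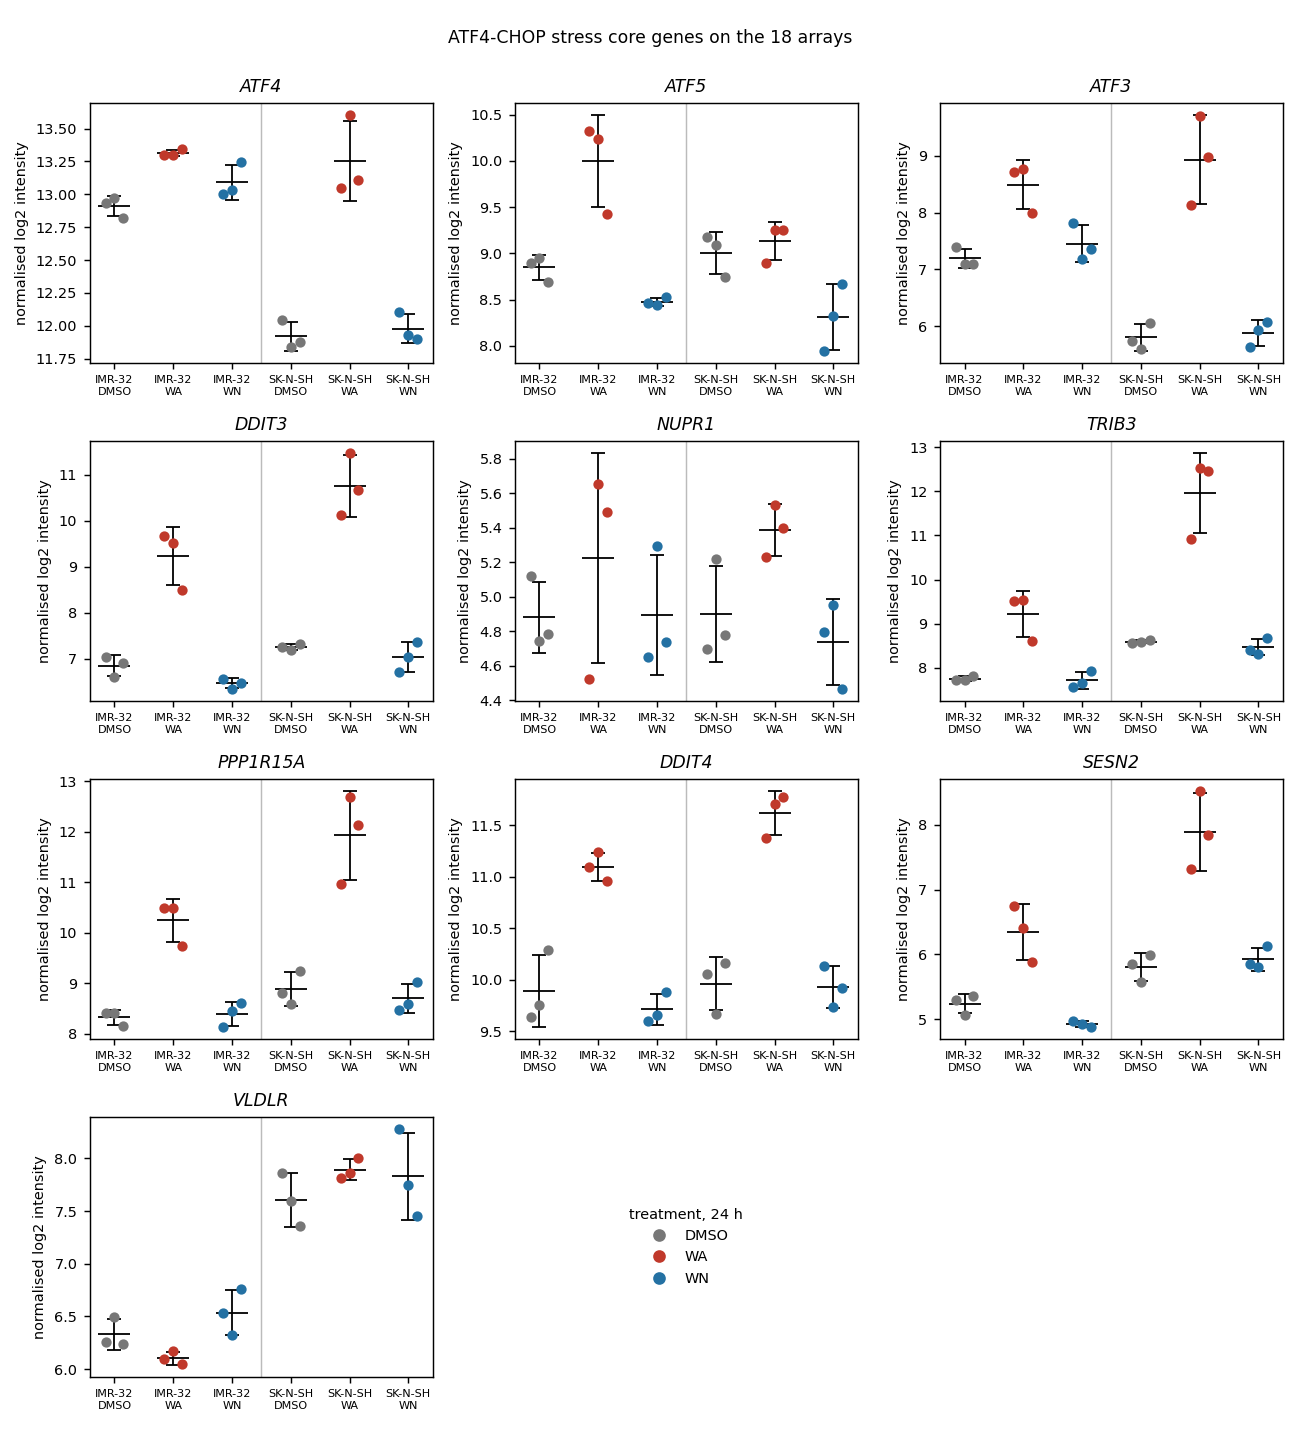
Normalised log2 intensity of each member (panels) on the 18 arrays, by line and treatment; points are arrays in the order of replicates 1 to 3 and bars the mean ± SD of 3 arrays. Each panel has its own axis. For DDIT3, TRIB3, PPP1R15A, DDIT4, ATF3, SESN2 and ATF4 the red WA points stand above the grey and blue points of the same line in both lines, and for ATF5 they do so in IMR-32.

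The members rose by different amounts on different replicates, and did so together. In IMR-32, WA replicate 3 was the lowest of the 3 WA arrays for all 7 members that rose, with a median rise over them of 0.86 against 1.51 on replicate 1 and 1.57 on replicate 2. In SK-N-SH, WA replicate 1 was the lowest for all 7 that rose there, with a median rise of 2.08 against 3.80 on replicate 2 and 3.17 on replicate 3. DDIT3 shows the span, at 1.65 on WA replicate 3 of IMR-32 and 4.23 on WA replicate 2 of SK-N-SH. The median over all genes lay between -0.01 and 0.05 on these 6 arrays. Quantile normalisation fixes the distribution of each array, so this median could not show whether other genes shared the pattern. How many of all raised genes were lowest on the same arrays was not counted. The pattern is therefore not shown to be particular to the members. Over all genes, 1591 were called with WA without WA replicate 3 of IMR-32, against 1123 and 1150 without replicate 1 or 2. Without WA replicate 1 of SK-N-SH 4878 were called, against 3077 and 3142 without replicate 2 or 3. SK-N-SH WA replicate 1 had the lowest highest signal of the 12 DMSO and WA arrays, 29825.6, and 18662 probes detected against 20577 and 20022 on the other WA arrays of that line. IMR-32 WA replicate 3 did not stand out in this way. Its highest signal was 35392.4, against 34659.4 and 37328.5 on WA replicates 1 and 2, and it had 19742 probes detected against 18782 and 20085. The part of such array differences in the lower rises was not tested.

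**Figure D3:**
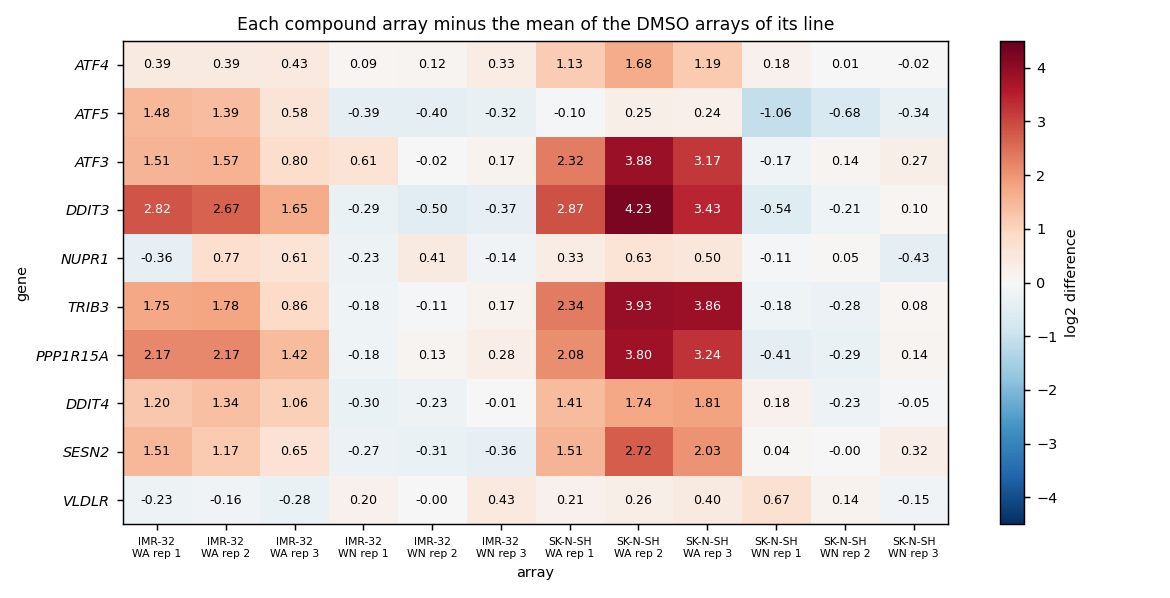
Each WA or WN array (columns) minus the mean of the 3 DMSO arrays of its line, on the log2 scale, for the 10 members (rows); red is higher and blue lower than DMSO, and each cell prints its value. WA replicate 3 of IMR-32 and WA replicate 1 of SK-N-SH are paler than the other WA arrays of their line in the rows of DDIT3, TRIB3, PPP1R15A, ATF3 and SESN2.

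WN at the same concentration and time changed no member by the test. None of the 10 passed in IMR-32, where 4.59% of all genes changed in either direction, and none in SK-N-SH, where 1.83% did. These shares changed when single arrays were left out, with 125 genes called instead of 595 without DMSO replicate 1 of IMR-32, and 1 instead of 238 without WN replicate 1 of SK-N-SH. At an unadjusted p under 0.05 in limma, 0 members passed in IMR-32, and only ATF5 did in SK-N-SH. The differences ran from -0.39 (DDIT3) to 0.26 (ATF3) in IMR-32 and from -0.69 (ATF5) to 0.22 (VLDLR) in SK-N-SH. Their 95% intervals reached no lower than -1.03 and no higher than 0.90 in IMR-32, and -1.16 and 0.72 in SK-N-SH, so changes within those bounds were not resolved by 3 arrays per group. ATF5 in SK-N-SH was the member with the lowest value (-0.69 ± 0.22, adjusted p = 0.121), and its 3 WN arrays all lay below the 3 DMSO arrays. It passed when arrays were weighted by quality (-0.84, adjusted p = 0.00696). A difference between the lines in the WN effect passed for 0 members, with 0 at an unadjusted p under 0.05 as well, and for 0% of all 12975 genes in limma, with 478 at an unadjusted p under 0.05.

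WA and WN were also compared with each other directly, 1 comparison in each line. In IMR-32, 7 members were higher with WA than with WN, where 12.6% of all genes were, and in SK-N-SH 8 were, where 20.6% of all genes were. The 7 in IMR-32 were those that rose against DMSO. DDIT3 was 6.81-fold higher with WA than with WN in IMR-32 (2.77 ± 0.30, adjusted p = 1.66e-05) and 13.2-fold higher in SK-N-SH (3.72 ± 0.30, adjusted p = 7.08e-07). SESN2, undetected on the WN arrays of IMR-32, was at least 2.28-fold higher with WA there (adjusted p = 7.57e-04), a bound taken against the lowest detectable signal of each WN array, or the probe's own signal where that was higher. That bound depends on the background correction, since the difference was 0.51 (adjusted p = 0.0217) with the authors' log2 values or without background correction. ATF3 was 1.04 ± 0.30 higher in IMR-32 (adjusted p = 0.0208), and lost its call without WA replicate 1 (0.93) or 2 (0.90) or WN replicate 2 (0.90) or 3 (1.00). ATF5 differed in SK-N-SH as well (0.82 ± 0.22, adjusted p = 0.00778), where it had not passed against DMSO with either compound, and the call was lost without WN replicate 1 (0.64, adjusted p = 0.0506). Members that did not pass were ATF4 in IMR-32 (0.22, 95% interval -0.08 to 0.52), NUPR1 (0.33, -0.21 to 0.87 in IMR-32, and 0.65, 0.11 to 1.19 in SK-N-SH) and VLDLR (-0.43, -0.83 to -0.04 in IMR-32, and 0.06, -0.33 to 0.46 in SK-N-SH). With the replicate number as a block NUPR1 passed in SK-N-SH (0.65, adjusted p = 0.0332).

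The size of the WA effect differed between the lines for 3 members. The effect in SK-N-SH minus that in IMR-32 was 1.91 ± 0.45 for TRIB3 (adjusted p = 0.0191), 1.83 ± 0.43 for ATF3 (adjusted p = 0.0184) and 0.93 ± 0.20 for ATF4 (adjusted p = 0.0117), where 3.31% of all genes had a higher effect in SK-N-SH. The same difference was 1.13 ± 0.43 for DDIT3 (adjusted p = 0.128), 1.12 ± 0.47 for PPP1R15A (adjusted p = 0.16) and 0.98 ± 0.35 for SESN2 (adjusted p = 0.105), which did not pass. Without SK-N-SH WA replicate 1, the array with the smallest rises, these passed too, at 1.45, 1.60 and 1.26, so that 6 members were called. In that fit 988 of all 12975 genes had a higher effect in SK-N-SH, against 429 with all arrays. Without SK-N-SH WA replicate 2 TRIB3 missed the threshold (1.64, adjusted p = 0.0537), as it did when DMSO and WA arrays were normalised and fitted alone (1.92, adjusted p = 0.0581). ATF3 missed it with the authors' log2 values or without background correction (1.05, adjusted p = 0.0601), and ATF4 with the mean of its probes (0.61, adjusted p = 0.0687). For TRIB3 and ATF3 the WA arrays spread more than the DMSO arrays in both lines. In SK-N-SH the SD was 0.90 with WA and 0.03 with DMSO for TRIB3, and 0.78 and 0.23 for ATF3. Their standard errors above are therefore smaller than the arrays compared would give by themselves.

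ATF5 went the other way, with an effect in SK-N-SH that was -1.02 ± 0.31 from that in IMR-32 (95% interval -1.68 to -0.36, adjusted p = 0.0599). This missed the threshold, and passed with the replicate number as a block (adjusted p = 0.0352), with array weights (-1.19, adjusted p = 0.00873) and in 5 other settings. The differences for DDIT4 (0.46 ± 0.26), VLDLR (0.51 ± 0.26) and NUPR1 (0.15 ± 0.36) did not pass.

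**Figure D4:**
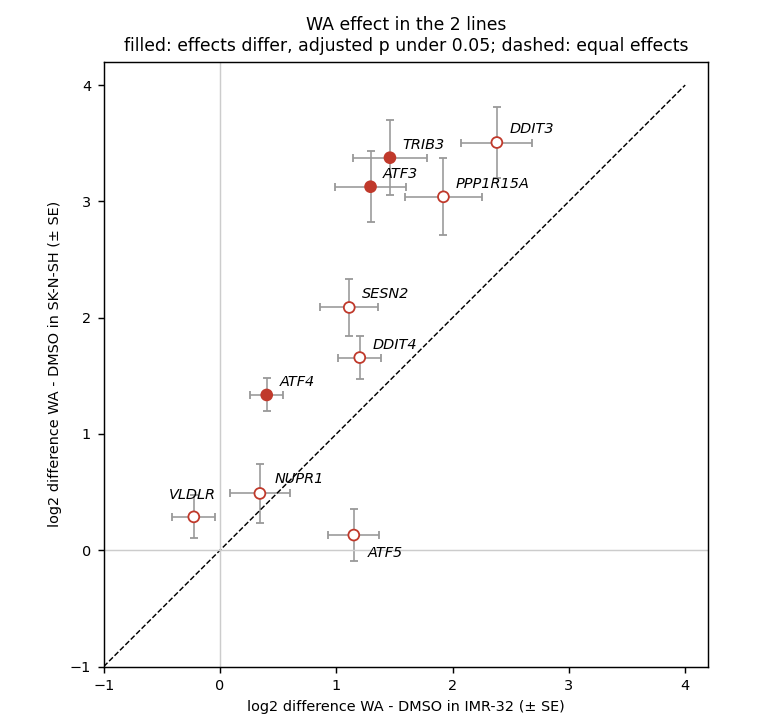
Log2 difference between WA and DMSO in IMR-32 (horizontal axis) and SK-N-SH (vertical axis) for the 10 members, with standard errors; the dashed line marks equal effects and filled points have a difference between the lines with an adjusted p under 0.05. ATF3, TRIB3 and ATF4 are filled and stand above the line, and ATF5 stands below it.

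Without a compound the lines differed in 4 of the 10 members, which is no larger a share than the 51.5% of all genes tested that differed. ATF4 was lower in SK-N-SH than in IMR-32 (-0.99 ± 0.14, adjusted p = 1.88e-05) and so was ATF3 (-1.39 ± 0.30, adjusted p = 0.00109), where 24.5% of all genes were lower. VLDLR was higher (1.28 ± 0.19, adjusted p = 2.31e-05) and so was TRIB3 (0.84 ± 0.32, adjusted p = 0.0373), where 27.0% of all genes were higher. The differences of ATF3 and VLDLR were -0.68 and 0.73 with the authors' log2 values or without background correction. The TRIB3 call was lost in each of the 6 fits without 1 DMSO array (0.82 to 0.87), and in 5 other settings. After WA the ATF4 mean was 13.31 for IMR-32 and 13.25 for SK-N-SH, and those of ATF3 8.49 and 8.93. ATF3 and ATF4, lower in SK-N-SH with DMSO, were thus among the 3 members with the larger WA effect there, and both quantities use the same DMSO arrays. TRIB3, the other of these 3, was higher in SK-N-SH with DMSO.

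Across the 12 WA and WN arrays, each taken relative to the DMSO mean of its line, most members followed DDIT3. The Pearson correlation with DDIT3 was 0.98 for PPP1R15A, 0.98 for SESN2, 0.97 for DDIT4, 0.95 for TRIB3, 0.94 for ATF3 and 0.85 for ATF4. It was 0.69 for ATF5, 0.55 for NUPR1 and -0.19 for VLDLR. The arrays of a line share their DMSO mean and split into WA and WN arrays, so these figures describe the pattern and carry no test. The 5 genes outside the core closest to DDIT3 by this measure were NAIF1 (0.99), SYT15 (0.99), HMOX1 (0.98), a stress-induced gene of heme breakdown, TREML3P (0.98) and ZFAND2A (0.98). PPP1R15A came next, ranked 6 among all genes, with SESN2 ranked 14 and DDIT4 28. TRIB3 ranked 92, ATF3 167, ATF4 868, ATF5 2125, NUPR1 3241 and VLDLR 7793. Many genes outside the core thus followed DDIT3 at least as closely as TRIB3, ATF3, ATF4, ATF5, NUPR1 and VLDLR did, and few as closely as PPP1R15A and SESN2.

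The wider ATF4 programme, from a list of 37 further target genes of which 34 were tested, rose broadly in SK-N-SH. There 30 rose and 1 fell with WA, with a median of 1.06, and in IMR-32 8 rose and 2 fell, with a median of 0.16. Of all genes tested 16.4% rose and 15.4% fell in SK-N-SH, and 8.04% rose and 6.47% fell in IMR-32, and these shares are the background of the other lists too. The genes that fell were ALDH18A1, an enzyme of proline synthesis (-0.71 ± 0.15 in IMR-32, with -0.49 ± 0.15 in SK-N-SH), and the methionyl-tRNA synthetase gene MARS1 in IMR-32 (-0.51 ± 0.10). The effect was higher in SK-N-SH for 17 of the genes and lower for KLHL24 (-0.86 ± 0.22), where it was higher for 3.31% and lower for 3.35% of all genes. No gene of the list passed with WN in either line (limma, medians 0.03 and -0.10). SLC3A2, the heavy chain of several amino acid transporters, rose by 1.71 ± 0.24 in IMR-32, with 3.28 ± 0.24 in SK-N-SH. CHAC1, which degrades glutathione, was undetected on all DMSO arrays and was at least 1.30-fold higher with WA in IMR-32, a call lost without background correction (0.40, adjusted p = 0.101), and at least 7.37-fold higher in SK-N-SH, with a log2 difference of 1.52 there with the authors' log2 values or without background correction. GDF15, a stress cytokine, rose by 4.18 ± 0.54 in IMR-32, or 2.53 with the authors' log2 values or without background correction, with 4.35 ± 0.54 in SK-N-SH.

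Upstream of ATF4, of 19 genes for eIF2 kinases, eIF2 and its regulators 3 rose in IMR-32, and 5 rose and 2 fell in SK-N-SH, with medians of -0.01 and 0.12, where 8.04% of all genes rose in IMR-32, and 16.4% rose and 15.4% fell in SK-N-SH. The 3 in IMR-32 were OMA1, the protease that activates DELE1 (0.71 ± 0.16), DNAJC3 (0.67 ± 0.22) and NCK1 (0.53 ± 0.14), and the last 2 lost their calls in most fits without 1 array of these groups. EIF2AK3, which encodes the kinase PERK, rose by 0.69 ± 0.20 in SK-N-SH, a call lost without DMSO replicate 2 (0.53) or WA replicate 3 (0.63), and by 0.33 with the authors' log2 values or without background correction. DNAJC3, an inhibitor of eIF2 kinases in the endoplasmic reticulum, rose by 1.62 ± 0.22 there, or 0.63 under the same settings, while DELE1, which relays mitochondrial stress to the kinase HRI, fell by 0.92 ± 0.15. EIF2S2, the beta subunit of eIF2, rose by 1.25 ± 0.13 in SK-N-SH, and EIF2B5, a subunit of its exchange factor, fell by 0.64 ± 0.13. Of 17 tested genes of the ATF6 and IRE1 arms of the unfolded protein response 2 fell in IMR-32 and 6 rose in SK-N-SH, with medians of 0.08 and 0.28, where 6.47% of all genes fell and 16.4% rose. The chaperone gene HSPA5, the best known target of these arms, gave -0.49 ± 0.16 in IMR-32 (adjusted p = 0.0460, lost in 7 other settings), as did SDF2L1 (-0.48 ± 0.15, lost in 7), and XBP1, the IRE1 substrate, rose by 1.22 ± 0.21 in SK-N-SH.

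Of 8 cell death genes linked to CHOP 1 rose and 1 fell in IMR-32, and 5 rose and 2 fell in SK-N-SH, with medians of -0.04 and 0.88. In IMR-32 that is close to the 8.04% and 6.47% of all genes that rose and fell, and in SK-N-SH those shares were 16.4% and 15.4%. TNFRSF10B, the death receptor DR5 and a known CHOP target, rose by 0.88 ± 0.18 in IMR-32, with 1.69 ± 0.18 in SK-N-SH, the former lost with the mean of its probes (0.58, adjusted p = 0.146). BCL2, which blocks apoptosis, fell by 0.84 ± 0.20 and 2.13 ± 0.20, the former call lost without WA replicate 2 (-0.67). CASP4 (1.18 ± 0.24), TNFRSF10A (1.09 ± 0.28, or 0.50 with the authors' log2 values or without background correction), PMAIP1 (1.00 ± 0.28) and BBC3 (0.76 ± 0.18) rose in SK-N-SH, and BCL2L11, which encodes the death-promoting protein BIM, fell by 0.65 ± 0.19. Of 19 tested paralogs of the members 2 rose (FOSL1, SESN1) and 2 fell in IMR-32, and 9 rose in SK-N-SH, with medians of 0.05 and 0.47, the counts in IMR-32 again near the background. FOSL1 lost its call in 6 settings, among them the authors' log2 values (0.31, adjusted p = 0.344), and SESN1 in 3 fits without 1 array. CEBPB, a partner of ATF4 and CHOP, rose by 2.50 ± 0.28 in SK-N-SH, whereas CEBPD fell by 2.77 ± 0.61 and BATF3 by 1.28 ± 0.12 in IMR-32, where the differences were -1.75 and -0.70 with the authors' log2 values or without background correction. Of 18 tested p53 targets, a list that shares TNFRSF10B and BBC3 with the CHOP list and SESN1 with the paralogs, 5 rose in IMR-32 (CDKN1A, PHLDA3, TNFRSF10B, TP53INP1 and SESN1), and 11 rose and TP53I3 fell (-1.40 ± 0.31) in SK-N-SH, with medians of 0.50 and 0.69. TP53INP1 lost its call in IMR-32 in 3 fits without 1 array. CDKN1A, the cell cycle inhibitor p21, rose by 1.07 ± 0.22 and 1.40 ± 0.22. With WN the genes of these 6 lists that passed were IMPACT, of the eIF2 list (-1.10 ± 0.19 in SK-N-SH), and BATF3, a paralog (-0.75 ± 0.12 in IMR-32). Of all genes 1.83% passed with WN in SK-N-SH and 4.59% in IMR-32, so few calls would be found in lists of this size.

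**Figure D5:**
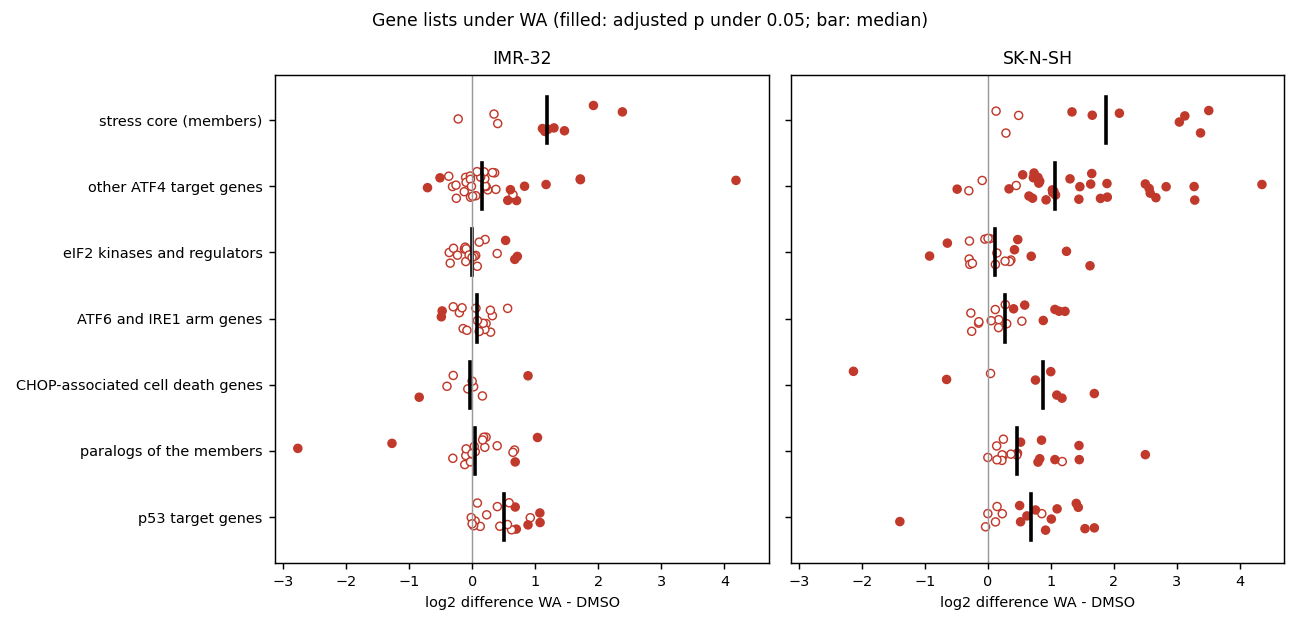
Log2 difference between WA and DMSO for each tested gene (points, spread vertically for legibility) of the stress core and of 6 further lists in IMR-32 (left) and SK-N-SH (right); filled points have an adjusted p under 0.05 and black bars are medians. The median of the core is 1.18 and 1.87, that of the other ATF4 targets 0.16 and 1.06.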

How the data were processed

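Per the file headers, the deposited non-normalized file pairs, for 47224 probes and 18 arrays, a signal with a detection p-value. The signal is a linear bead intensity to which the authors had applied no normalization, per the file headers. In the deposited series matrix the same arrays stand as log2 values after quantile normalization, for which the submitters' processing notes name limma, whose version is not given in the sources used here. Its centring is unknown and its median was 6.87, and each of its columns correlated best with the signals of its own array (18 of 18, lowest r 0.995), so samples are matched.

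From the signals of all but 2 incompletely listed probes, neqc of limma 3.58.1 (R 4.3.3) gave background-corrected, quantile-normalized log2 values (offset 16). On the 6 WN arrays the detection p-values as deposited were out of step with the signals (66.5% to 68.1% of probes within 0.02 of a falling function of the array's own signal, at least 99.99% on the other 12) and were rederived from the signals by that function (running median over 101 probes). The probes of ATF5, NUPR1, TRIB3, PPP1R15A and DDIT4 were off that function on all 6. A probe was kept if detected at p under 0.01 on at least 3 of 18 arrays (23320 probes; 12 of the 16 probes of the members), and a gene was represented by its brightest kept probe (12975 genes). Probes were named from the platform's annotation with updated symbols: 30107 had 1 symbol, 8 several and 17107 none here.

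All arrays were fitted together in limma (1 mean per group, eBayes, 12 residual and 4.45 prior degrees of freedom), with Benjamini-Hochberg adjustment over all genes of a comparison and a threshold of 0.05. The fit was tested on simulated data with known changes. Deviations from group means of same-numbered compound and DMSO arrays correlated at r of 0.161 to 0.663 (12 of 12 pairs over 0.1), so replicate numbers were taken to pair these arrays, a reading from the data, and the fit with the replicate number as a block is printed where it changes a call on a named gene. Between WA and WN arrays r was 0.0424 to 0.413, not over 0.1 for each pair. Named genes were the 10 members, the 5 genes most correlated with DDIT3 and up to 4 changed genes of each of 6 lists with the largest WA difference. Other list genes were named after their values were seen. The members, lists and tests were chosen with earlier results of these data known. Alternatives covered the detection p-values, the authors' values, background, scaling, filter, probe choice, block, spread, array weights, arrays without WN and leaving out each array. Promoter windows are those of RefSeq (GRCh38.p14), and matplotlib 3.10.9 (Python 3.11.15) drew the figures. No window was used for NUPR1.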

Additional observations from a re-analysis of the deposited data

Results flagged for a closer look

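With groups of 3 arrays no test for a single outlying array was made. The results below stand out because the WA effect differed between the lines by the test of that difference itself, and each value is the effect in SK-N-SH minus that in IMR-32 on the log2 scale (limma). Among the members these were TRIB3 (1.91 ± 0.45), ATF3 (1.83 ± 0.43) and ATF4 (0.93 ± 0.20). Of the other ATF4 targets CHAC1, undetected on the DMSO arrays of both lines so that its value rests on background there, gave 2.10 ± 0.38 (adjusted p = 0.00436), and SLC3A2 1.57 ± 0.34 (adjusted p = 0.0115). Of the paralogs CEBPD gave 3.95 ± 0.87 (adjusted p = 0.0132), CEBPB, also an ATF4 target, 2.53 ± 0.40 (adjusted p = 0.00174), BATF3 1.50 ± 0.16 (adjusted p = 8.03e-05) and CEBPA 1.27 ± 0.36 (adjusted p = 0.0469). Of the eIF2 list EIF2S2 gave 1.05 ± 0.18 (adjusted p = 0.00356) and DELE1 -1.0 ± 0.21 (adjusted p = 0.0107). The death genes CASP4 and BCL2 gave 1.58 ± 0.34 (adjusted p = 0.0117) and -1.29 ± 0.28 (adjusted p = 0.0132), and XBP1 gave 1.05 ± 0.30 (adjusted p = 0.0461). Outside the members the calls of CEBPA and XBP1 were lost in 15 and 13 of 23 alternatives, and the other 9 kept their calls in all 23. With the authors' log2 values or without background correction the values were smaller for CHAC1 (1.12), CEBPD (2.45), BATF3 (0.79) and CASP4 (0.93), and with the mean of its probes that of BCL2 was -0.82.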

How the results depend on the processing

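Of 1650 values of members under alternatives, 1600 kept their direction and side of the threshold or changed sign only while below it on both sides (44), 23 lost a call, 27 gained one and 0 were called in the opposite direction. Of 2065 values of the other named genes 98 lost a call and 34 gained one. The count of members that rose with WA stayed within 1.5 times of 7 in both lines under every alternative. For the WA effect in SK-N-SH against IMR-32, 6 members were higher with array weights, and 2 to 6 when single arrays were left out. Of the members 1 (ATF5) was lower there with the authors' values, without background correction, with the replicate block, with trend and robust eBayes and with array weights, and 0 to 1 when single arrays were left out. Between the DMSO-treated lines 1 member was higher with the deposited detection p-values, the authors' values, no background correction, no filter or DMSO and WA arrays alone, and 1 in each fit without 1 array. With array weights 1 member (ATF5) was lower with WN in SK-N-SH, and with the arrays of 1 line fitted alone 1 (VLDLR) was lower with WA than with WN in IMR-32. The replicate block changed no other call on a member than those of ATF5 and NUPR1 given above. Among other named genes it added calls for CEBPD with WA in SK-N-SH (1.18, adjusted p = 0.00226), for GADD45A with WA in IMR-32 (0.62, adjusted p = 0.0411) and for the difference between WA effects of TNFRSF10B (adjusted p = 0.0166), HMOX1 (adjusted p = 0.00863), DNAJC3 (adjusted p = 0.0437) and GADD45A (adjusted p = 0.0440). No paired analysis was possible for the DMSO-treated lines because the replicate numbers are nested in the lines. Counts over all genes moved by more than 1.5 times under these settings: with array weights from 1883 to 3908 (WA in IMR-32), from 595 to 3151 and from 238 to 1494 (WN in IMR-32 and SK-N-SH), from 3081 to 5678 (WA against WN in IMR-32) and from 864 to 2374 (difference between WA effects), and with the arrays of 1 line fitted alone from 4134 to 2694 (WA in SK-N-SH) from 595 to 1117 (WN in IMR-32) and from 238 to 0 (WN in SK-N-SH), with the authors' values or without background correction from 595 to 916 and from 238 to 422 (WN), and with the replicate block from 595 to 987 and from 238 to 495 (WN) and from 864 to 1751 (difference between WA effects). Leaving out single arrays gave 1123 to 1591 (WA in IMR-32), 125 to 518 and 1 to 152 (WN), 2006 to 2659 (WA against WN in IMR-32) and 519 to 2236 (difference between WA effects, highest without SK-N-SH WA replicate 1); the other comparisons with calls stayed within 1.5 times. The difference between WN effects had 0 calls, 5 with array weights and 2 without IMR-32 WN replicate 3. The causes were not tested. NUPR1, and SESN2 on the WN arrays of IMR-32, were limited by signal near background.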
